A study of Mus musculus with 12 samples.

Results

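The corticosteroid receptors and the proteins that fold, transport and supply them were followed in the hypothalamus of mouse pups exposed to modified maternal separation (MMS). The set held 10 genes, taken by symbol from the 43280 gene rows of the count table. They were the glucocorticoid receptor Nr3c1, the mineralocorticoid receptor Nr3c2, the co-chaperones Fkbp4, Fkbp5, Ptges3 and Stip1, the cytosolic HSP90 genes Hsp90aa1 and Hsp90ab1, the steroid dehydrogenase Hsd11b1 and the coactivator Ncoa1. Each of the 10 passed the filter on low counts, as did 13104 genes in all. The libraries came from male C57/Bl6 pups killed on postnatal day 6, with 6 control and 6 MMS pups and 1 library per pup. MMS pups spent short daily spells away from the dam on a heating pad and were turned onto their backs whenever they righted themselves, and tissue was taken straight after the last session. Males of each litter were split between the groups, so the controls were littermates that had not been separated. Which litter a library came from is not stated, so littermates may lie in both groups.

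Corticosteroid receptors reach the form that binds hormone with high affinity only with the help of chaperones. HSP70 first takes up the unfolded receptor, Stip1 (also called Hop) passes it to an HSP90 dimer, and Ptges3 (p23) clamps the complex in the form that binds hormone. Fkbp5 (FKBP51) in that complex lowers the affinity for hormone, and Fkbp4 (FKBP52) replaces it when hormone binds and couples the receptor to the motor protein dynein for transport to the nucleus. Fkbp5 is itself induced by glucocorticoids, which makes it part of a short feedback loop, and Hsp90aa1 is the stress-inducible HSP90 whereas Hsp90ab1 is made constitutively. Hsd11b1 regenerates active corticosterone inside the cell and Ncoa1 (SRC-1) carries the DNA-bound receptor's signal to the transcription machinery. In the hypothalamus these receptors mediate the negative feedback of corticosterone on the stress axis, which in newborn mice responds only weakly to many stressors.

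Libraries held 3218777 to 6560620 counts and 17112 to 18685 detected genes. On the first principal component (30.4% of the variance) MMS 2 was at 57.8 and MMS 4 at 46.3, apart from the remaining libraries at -14.4 to -3.04. Summed CPM (a gene's count relative to the scaled library total) of 6 neuronal markers was 4993 and 5073 in these libraries against 5794 to 7065 in the other 10. For 7 markers of astrocytes and tanycytes it was 1648 and 1681 against 1179 to 1409, and for 10 ependymal cilia markers 24.2 and 43.8 against 96.0 to 206. With all 12 libraries, the 10 ependymal markers all had negative log2 fold changes between the groups, with a median of -0.66. So did all 5 blood markers (median -0.36) and the 3 choroid plexus markers tested (median -0.18). The neuronal and the astrocyte and tanycyte sums did not speak for most of their genes in that comparison, since 2 of 6 neuronal markers were lower in MMS (median 0.03) and 4 of 7 astrocyte and tanycyte markers (median -0.06). All 15 hypothalamic markers looked for had a row, summing to 1031 to 2043 CPM in controls and 1416 to 1888 CPM in MMS libraries. Of 8 pituitary markers 0 passed the filter. Fshb and Pou1f1, defining genes of that gland, were at 0 in every library, and the other pituitary markers had some counts. The 8 summed to 0.229 to 25.3 CPM in controls and 0.0 to 41.5 CPM in MMS libraries. Microglia and telencephalon markers set MMS 2 apart but not MMS 4. Microglia markers were at 129 CPM in MMS 2 and 155 CPM in MMS 4, against 149 to 195 CPM in the other 10 libraries. Telencephalon markers were at 124 and 96.5 CPM, against 67.1 to 109 CPM. Some other marker sums varied widely without setting MMS 2 and MMS 4 apart. Meninges and fibroblast markers had 321 to 1378 CPM in controls and 124 to 2362 CPM in MMS libraries. Thalamus markers had 128 to 635 CPM and 170 to 519 CPM. Choroid plexus markers reached 1776 CPM in controls and at most 15.8 CPM in MMS libraries. The lowest and highest sums of each of these lists were in libraries other than MMS 2 and MMS 4. In such whole-tissue libraries, fewer cells of a type and less RNA per cell cannot be told apart. Results are therefore given with and without MMS 2 and MMS 4.

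The comparison asked whether MMS altered the mRNA of the receptors and of their chaperone machinery. With edgeR, 0 of the 10 genes passed a Benjamini-Hochberg adjusted p of 0.05, where the share of all genes that passed was 0.0%. Their adjusted p-values ran from 0.543 to 0.984. At an unadjusted edgeR p under 0.05 there was 1 of 10, Hsp90ab1, which was lower in MMS, against 9.08% of all genes in either direction and 4.4% in that direction. The groups overlapped in each of the 10 genes, and 0.389% of all genes did not overlap. Log2 fold changes were positive for 5 genes and negative for 5, with a median of 0.0031 beside 0.0009 over all genes. Without MMS 2 and MMS 4 there was again 1 of 10 at an unadjusted edgeR p under 0.05, but it was Nr3c1, against 5.03% of all genes. None of the 10 was then past the adjusted threshold, against 0.0373% of all genes.

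**Figure D1:**
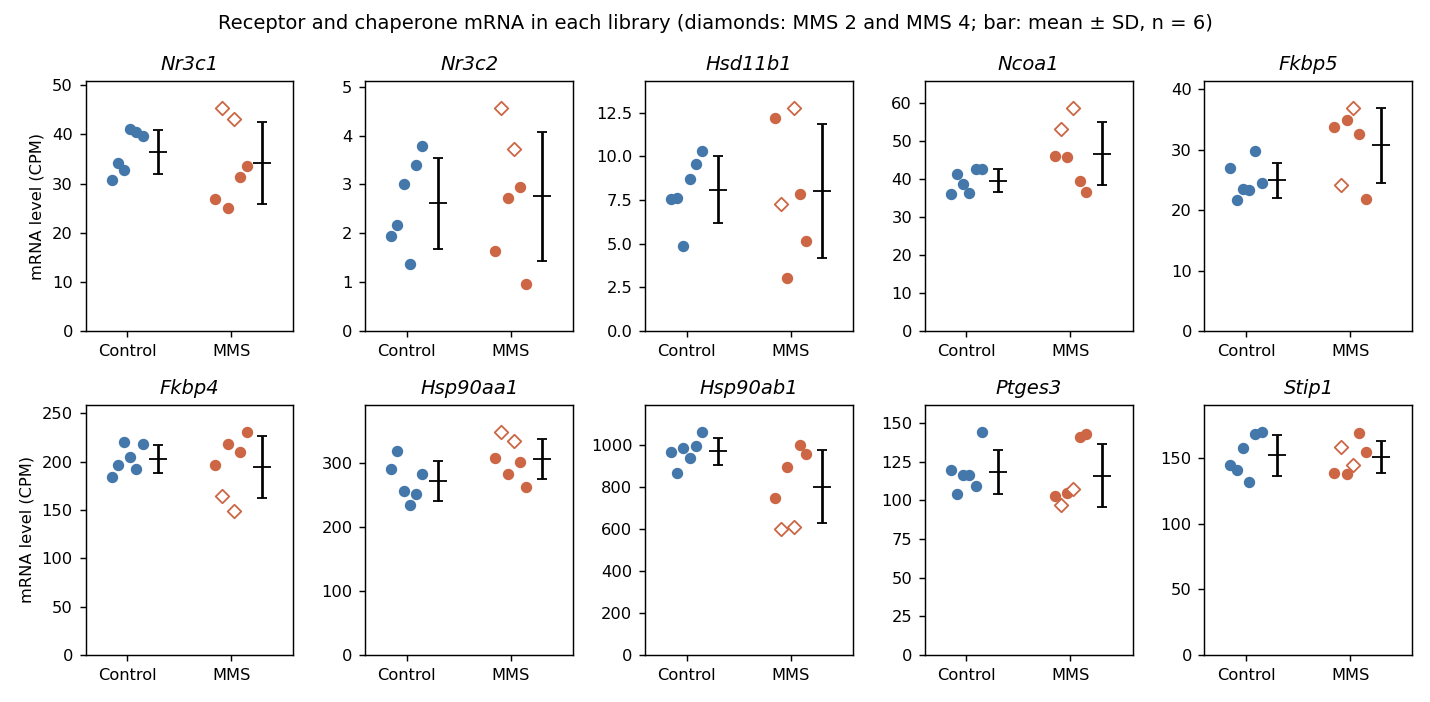
mRNA level in CPM of each gene in the 6 control and 6 MMS libraries, on axes that start at 0, with the mean and SD of each group. Open diamonds are MMS 2 and MMS 4, which hold the 2 lowest Hsp90ab1 and Fkbp4 levels and the 2 highest Nr3c1, Ncoa1 and Hsp90aa1 levels of all 12 libraries.

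Because each transcript gives reads from its 3' end only, counts are not expected to scale with transcript length. The counting rule and annotation were not given in the sources used here, so levels of different genes are compared only as counted. Mean CPM over the 12 libraries fell from 884 for Hsp90ab1, through 289 for Hsp90aa1, 199 for Fkbp4, 151 for Stip1 and 117 for Ptges3, to 43.1 for Ncoa1, 35.4 for Nr3c1, 27.8 for Fkbp5, 8.07 for Hsd11b1 and 2.69 for Nr3c2. The highest mean was thus 329 times the lowest, and each chaperone other than Fkbp5 had a higher mean CPM than both receptors. Neighbours in this order kept it in 12 of 12 libraries, except that Ncoa1 was above Nr3c1 in 11 and Nr3c1 above Fkbp5 in 9. The order of Ncoa1, Nr3c1 and Fkbp5 was therefore not fixed from pup to pup. The 10 genes summed to 1500.0 to 1998 CPM per library.

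Nr3c1 encodes the glucocorticoid receptor, the lower-affinity of the corticosterone receptors, which is filled when hormone is high (18:39410545-39519421, minus strand, GRCm38, as for all coordinates). The lowest, median and highest levels were 30.8, 36.9 and 41.0 CPM in controls, and in MMS pups 25.1, 32.4 and 45.4 CPM. MMS pups lay on both sides of the controls, with 2 above all of them (MMS 2 at 45.4 and MMS 4 at 43.1 CPM) and 2 below. The log2 fold change was -0.09 (SE 0.15, 95% interval -0.40 to 0.23, edgeR adjusted p = 0.860). Leaving out single libraries gave -0.17 (without MMS 2) to -0.014 (without MMS 1). Without MMS 2 and MMS 4 the other 4 MMS pups averaged 29.2 ± 3.87 CPM (SD, n = 4) against 36.5 ± 4.45 CPM in controls (SD, n = 6). That difference was -0.32 on the log2 scale (SE 0.14, with an adjusted p of 0.961 in edgeR). The Nr3c1 estimate was thus larger without these libraries, and in neither fit was it past the threshold.

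Nr3c2 encodes the mineralocorticoid receptor, which binds corticosterone with the higher affinity and is occupied at resting hormone levels (8:76899442-77245012, plus strand). It was the least abundant of the 10 genes, with 153 counts in all and 3 to 22 counts per library. Levels had a lowest, median and highest value of 1.38, 2.60 and 3.79 CPM in controls and 0.966, 2.83 and 4.57 CPM in MMS pups. The MMS pups spanned the whole control range, with MMS 2 above it and MMS 6 below it. The estimated log2 fold change was 0.08 (SE 0.37, 95% interval -0.68 to 0.84, edgeR adjusted p = 0.949) and -0.32 (SE 0.43) without MMS 2 and MMS 4. At this depth an interval of that width did not allow a direction to be given. An exon of Gm10649 on the opposite strand shares 247 bases with Nr3c2 exons, and had 11 counts in all.

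The balance of the receptors was read within each library as the ratio of Nr3c2 to Nr3c1 counts, which needs no scaling between libraries. It ran from 0.0335 to 0.0957 among controls and between 0.0288 and 0.108 among MMS pups. Nr3c1 thus had far more counts than Nr3c2 in every pup. The mean log2 ratio was -3.88 ± 0.56 in controls and -3.77 ± 0.72 in MMS pups (SD, n = 6 each). The difference of 0.11 was smaller than either SD and was -0.07 without MMS 2 and MMS 4. It ranged from -0.10 without Control 4 to 0.38 without MMS 6 when 1 library was left out.

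Hsd11b1, the enzyme that regenerates corticosterone from its inert 11-keto form (1:193221634-193264075, minus strand), was measured at 10 to 72 counts per library. The lowest, median and highest levels were 4.86, 8.16 and 10.3 CPM in controls, and in MMS pups 3.03, 7.55 and 12.8 CPM. MMS 1 at 12.2 and MMS 4 at 12.8 CPM were above all controls and MMS 3 at 3.03 CPM was below them. The coefficient of variation (CV, the SD over the mean) was 47.7% in MMS pups and 23.7% in controls. With the means so close, at 8.04 and 8.10 CPM, the log2 fold change was 0.02 (SE 0.28, 95% interval -0.57 to 0.61, edgeR adjusted p = 0.984), and it was -0.16 without MMS 2 and MMS 4. Hsd11b2, which does the opposite reaction and shields the mineralocorticoid receptor from corticosterone, did not pass the filter. It had 149 counts in all and at most 47 in a library.

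Hsp90ab1, the constitutive HSP90 and the most abundant of the 10 genes (17:45567775-45573271, minus strand), had the smallest p among them. The lowest, median and highest levels were 868, 975 and 1062 CPM in controls, and in MMS pups 597, 821 and 999.8 CPM. MMS 1, MMS 2 and MMS 4, at 747, 597 and 610 CPM, lay below all controls, and the other 3 MMS pups lay within the control range. The means were 968 ± 64.5 CPM in control pups against 801 ± 175 CPM after MMS (SD, n = 6 each). The fold change was 0.827 (95% interval 0.694 to 0.986), a log2 fold change of -0.27 (SE 0.12, with an adjusted p of 0.543 in edgeR). It was -0.10 (SE 0.09, with an adjusted p of 0.964 in edgeR) without MMS 2 and MMS 4. The summed ependymal markers were low in these same libraries, as was the neuronal sum, and the astrocyte and tanycyte sum was high, although most genes of the neuronal and of the astrocyte and tanycyte list had a log2 fold change between the groups of the opposite sign. Their part in the Hsp90ab1 difference was not tested.

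Hsp90aa1, the inducible HSP90 (12:110690605-110702728, minus strand), had its log2 fold change on the other side of 0. The lowest, median and highest levels were 234, 268 and 318 CPM in controls, and in MMS pups 262, 304 and 348 CPM. Of the MMS pups 5 lay above the control mean, and MMS 2 and MMS 4, at 348 and 333 CPM, above all controls. The means were 271 ± 30.8 and 306 ± 31.7 CPM (SD, n = 6 each), with a log2 fold change of 0.17 (SE 0.10, 95% interval -0.04 to 0.38, edgeR adjusted p = 0.592). Without MMS 2 and MMS 4 the log2 fold change was 0.09 (SE 0.10). The HSP90 genes are close paralogs, and reads that match both may have been given to either or dropped, for the counting rule was not given in the sources used here.

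Inducible HSP90 thus made up a larger part of HSP90 mRNA in some MMS pups. The ratio of Hsp90aa1 to Hsp90ab1 counts was 0.250 to 0.366 in controls and 0.274 to 0.583 in MMS pups. MMS 1, MMS 2 and MMS 4, at 0.410, 0.583 and 0.546, exceeded all controls and the other 3 did not. On the log2 scale the ratio averaged -1.84 ± 0.21 in controls and -1.37 ± 0.46 in MMS pups (SD, n = 6 each). The difference was 0.47, and 0.20 without MMS 2 and MMS 4, which is within the control SD. No test was made of this ratio, since its parts had already been seen.

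**Figure D2:**
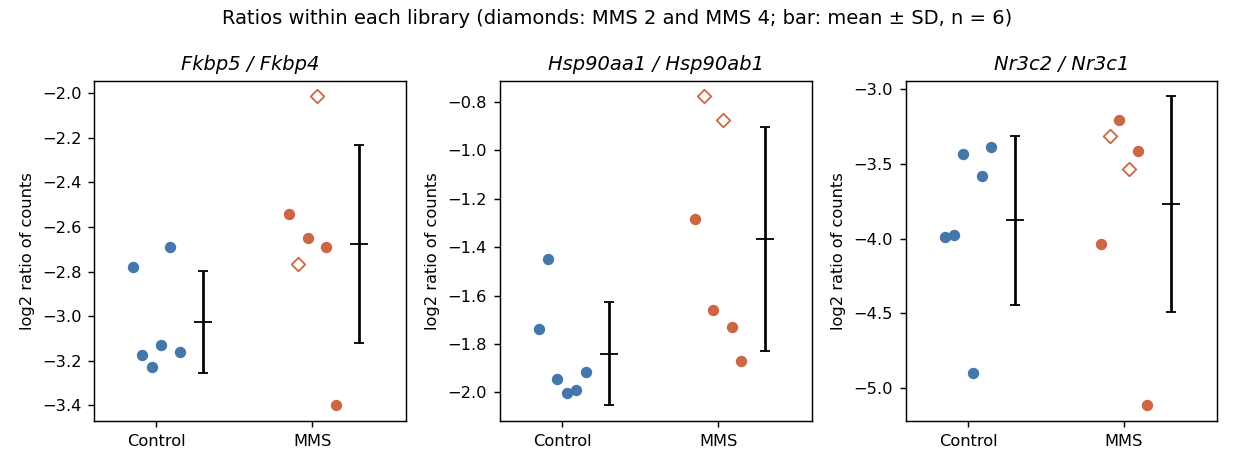
Log2 ratio of the counts of gene pairs within each library, for the 6 control and 6 MMS pups, with the mean and SD of each group. Open diamonds are MMS 2 and MMS 4, which have the highest Hsp90aa1 to Hsp90ab1 ratios, at -0.78 and -0.87, and MMS 4 has the highest Fkbp5 to Fkbp4 ratio, at -2.02.

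The immunophilins Fkbp5 and Fkbp4 compete for the same place on HSP90. Fkbp5 (17:28399094-28517527, minus strand) had the largest log2 fold change of the 10 genes. The lowest, median and highest levels were 21.7, 24.0 and 29.8 CPM in controls, and in MMS pups 21.9, 33.1 and 36.9 CPM. MMS 1, MMS 3, MMS 4 and MMS 5, between 32.6 and 36.9 CPM, were above all controls, whereas MMS 2 at 24.2 and MMS 6 at 21.9 CPM lay in the control range. Mean levels were 25.0 ± 2.91 and 30.7 ± 6.13 CPM (SD, n = 6 each). The fold change was 1.23 (95% interval 0.994 to 1.53), a log2 fold change of 0.30 (SE 0.15, with an adjusted p of 0.555 in edgeR). The Fkbp5 estimate hardly changed when MMS 2 and MMS 4 were left out together, at 0.31 (SE 0.15, with an adjusted p of 0.961 in edgeR). Singly they moved it in opposite directions, to 0.37 without MMS 2 and 0.25 without MMS 4. It lay between 0.25 and 0.38 when any 1 of the 12 libraries was left out.

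Fkbp4 (6:128429735-128438677, minus strand) averaged 199 CPM over all pups, against 27.8 CPM for Fkbp5. The lowest, median and highest levels were 185, 200.3 and 219.9 CPM in controls, and in MMS pups 149, 203 and 231 CPM. MMS 4 at 149 and MMS 2 at 164 CPM were below all controls, and the other 4 were at 196 CPM or more, with MMS 6 above all controls. The log2 fold change was -0.06 (SE 0.11, 95% interval -0.29 to 0.17, edgeR adjusted p = 0.877) and turned to 0.08 (SE 0.09) without MMS 2 and MMS 4. The ratio of Fkbp5 to Fkbp4 counts was 0.107 to 0.155 in controls and 0.0947 to 0.247 in MMS pups, with 4 MMS pups above all controls and MMS 6 below them. Its mean log2 value was -3.03 ± 0.23 in controls and -2.68 ± 0.44 in MMS pups (SD, n = 6 each). This difference of 0.35 became 0.21 without MMS 2 and MMS 4 and was not tested.

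The start regions of these co-chaperone genes are shown because the pair competes for the receptor complex while MMS 2 and MMS 4 were low in Fkbp4 and not in Fkbp5. Each sequence is from RefSeq (GRCm38.p6), runs from 250 bases before to 50 bases after the annotated start, and has CCAAT or its reverse complement ATTGG in capitals. The Fkbp5 region is chr17:28486100-28486399 and the Fkbp4 region chr6:128438607-128438906, both read on the minus strand. The RefSeq start used for Fkbp5 lies inside the gene as GENCODE outlines it above, downstream of its outermost start.
Fkbp5: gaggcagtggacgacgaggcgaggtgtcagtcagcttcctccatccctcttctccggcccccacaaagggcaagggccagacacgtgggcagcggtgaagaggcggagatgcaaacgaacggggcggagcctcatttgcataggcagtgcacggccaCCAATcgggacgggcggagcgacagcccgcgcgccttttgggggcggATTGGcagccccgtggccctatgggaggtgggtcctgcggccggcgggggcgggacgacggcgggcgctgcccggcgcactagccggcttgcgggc
Fkbp4: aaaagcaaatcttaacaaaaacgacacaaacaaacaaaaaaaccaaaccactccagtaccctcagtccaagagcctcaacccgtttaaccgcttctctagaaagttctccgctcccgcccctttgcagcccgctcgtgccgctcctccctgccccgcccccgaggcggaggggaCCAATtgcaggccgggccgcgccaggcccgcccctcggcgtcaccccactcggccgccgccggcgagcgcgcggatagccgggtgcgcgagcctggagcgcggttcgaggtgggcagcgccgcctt
Fkbp5 has the letters CCAAT 93 bases and ATTGG 46 bases before the start, and Fkbp4 has CCAAT 76 bases before it. Both strands were searched in the 7 of the 10 genes with an entry in the RefSeq promoter set used. Hsp90aa1, Hsp90ab1 and Nr3c1 had no entry and were not searched. Of the 7 genes 5 held this motif, as did 37.4% of 32851 promoters. TGTTCT or AGAACA, the half-site bound by corticosteroid receptors, was found in 1 of 7 (Ncoa1) against 19.0% of all promoters. GAANNTTC, an arrangement of heat shock factor units, was in 2 of 7, Fkbp4 (GAAAGTTC, 151 bases before the start) and Nr3c2, against 7.86%, and TTCNNGAA in 0 of 7 against 8.52%. These matches describe the letters in the window only.

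Stip1 and Ptges3 act before and after the HSP90 dimer closes on the receptor. Stip1 (19:7020702-7039967, minus strand) had a lowest, median and highest level of 132, 151 and 170.2 CPM in controls and 138, 149.9 and 169 CPM in MMS pups. No MMS pup lay outside the control range, MMS 2 at 159 and MMS 4 at 145 CPM included. The estimated log2 fold change was -0.02 (SE 0.10, 95% interval -0.22 to 0.19, edgeR adjusted p = 0.965), the narrowest interval of the 10 genes, and it was also -0.02 without MMS 2 and MMS 4. Ptges3 (10:128058954-128077272, plus strand) had levels of 104, 116 and 145 CPM in controls and 96.7, 106 and 143 CPM in MMS pups. Here MMS 1 and MMS 2, at 103 and 96.7 CPM, were below all controls, and no MMS pup was above them. The log2 fold change was -0.03 (SE 0.12, 95% interval -0.28 to 0.22, edgeR adjusted p = 0.945), and 0.06 without MMS 2 and MMS 4.

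Ncoa1, the coactivator SRC-1 (12:4247362-4477182, minus strand), had a lowest, median and highest level of 35.9, 40.0 and 42.6 CPM in controls and 36.7, 45.9 and 58.7 CPM in MMS pups. MMS 1 to MMS 4, from 45.7 to 58.7 CPM, were above all controls, and MMS 5 and MMS 6, at 39.4 and 36.7 CPM, were among them. The estimated log2 fold change was 0.24 (SE 0.13, 95% interval -0.02 to 0.50, edgeR adjusted p = 0.564). It was 0.09 (SE 0.12, with an adjusted p of 0.964 in edgeR) without MMS 2 and MMS 4, the libraries with the highest Ncoa1 levels. An antisense gene, 4921501I09Rik, shares 68 bases with Ncoa1 exons.

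**Figure D3:**
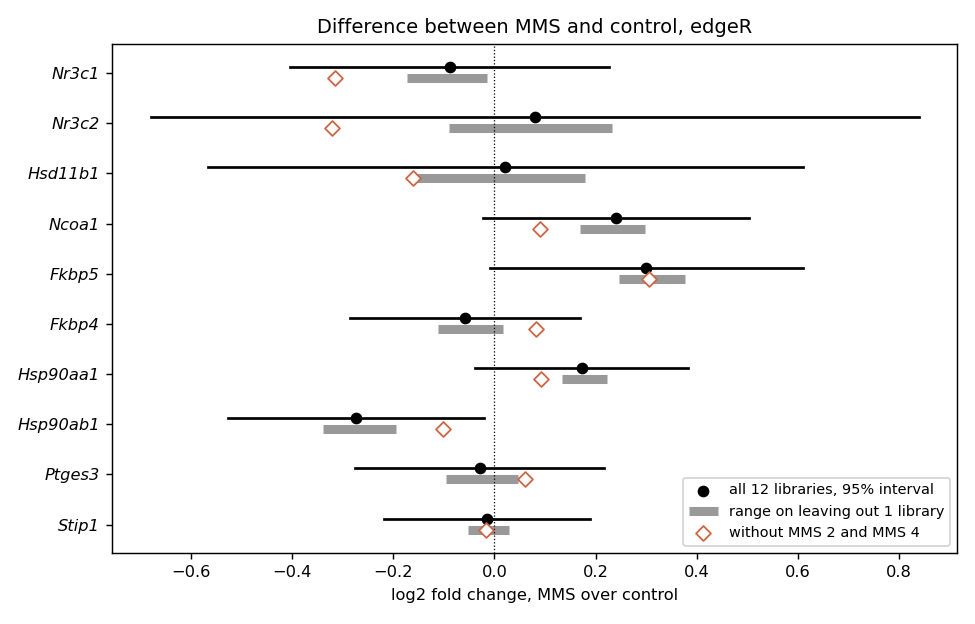
Log2 fold change of each gene, MMS over control, in edgeR. Black points and lines are the estimates and 95% intervals with all 12 libraries, grey bars the range of estimates when 1 library is left out, and open diamonds the estimates without MMS 2 and MMS 4, where Nr3c1 moves from -0.09 to -0.32, Hsp90ab1 from -0.27 to -0.10 and Fkbp5 only from 0.30 to 0.31.

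The genes thus differed in how much they rested on the libraries that stood apart. MMS 2 and MMS 4 held the highest 2 levels of Nr3c1, Hsp90aa1 and Ncoa1 and the lowest 2 of Hsp90ab1 and Fkbp4, whereas Stip1 did not set them apart and Fkbp5 put MMS 4 highest and MMS 2 in the control range. The neuronal, astrocyte and tanycyte, and ependymal marker sums set the same libraries apart. Those of oligodendrocytes (1040 and 998 CPM against 717 to 1053) did not. Nor did those of meninges and fibroblasts, thalamus and choroid plexus, which varied widely among the other libraries. The part of any of these marker sums in the gene differences was not tested. The CV was higher among MMS pups than among controls in 8 of the 10 genes, against 73.1% of all genes. It was 21.8% against 6.66% for Hsp90ab1, 16.4% against 7.08% for Fkbp4 and 24.4% against 12.2% for Nr3c1. Hsp90aa1 (10.4% against 11.3%) and Stip1 (8.17% against 10.3%) had the lower CV in MMS pups. Without MMS 2 and MMS 4 the MMS group had the higher CV in 7 of the 10 and in 57.6% of all genes.

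Other genes of the receptor pathway were grouped in 5 lists by function. Of 82 genes listed 74 were tested, 0 passed the adjusted threshold, and 7 (9.46%) had an unadjusted edgeR p under 0.05, near the background of 9.08%. Of these 5 were higher in MMS, beside 4.68% of all genes, and 2 were lower. The lowest adjusted p was 0.543. Without MMS 2 and MMS 4, Hsf1 alone among the list genes named here by their p in all libraries kept an unadjusted edgeR p under 0.05. Over the 5 lists 3 of 76 tested genes (3.95%) were then under it, against 5.03% of all genes. All 3 (Hsf1, Trap1 and Cacybp) were lower in MMS, and Trap1 and Cacybp are named after their values were seen.

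The chaperone cycle list held 22 genes, all tested, with 9 positive and 13 negative log2 fold changes and a median of -0.06 (0.02 without MMS 2 and MMS 4). Unc45a, a co-chaperone of HSP90, was the 1 gene of 22 (4.55%, against 9.08% of all genes) with an unadjusted edgeR p under 0.05, with a log2 fold change of 0.28 (SE 0.13, with an adjusted p of 0.543 in edgeR). It was 31.4 ± 3.82 CPM in control pups against 38.1 ± 5.07 CPM after MMS (SD, n = 6 each). Sgta, a co-chaperone that binds HSP70 and HSP90, was at -0.24 (SE 0.15). For Sgta the value was -0.01 without MMS 2 and MMS 4, which measured 164 and 159 CPM against 255 to 318 CPM in the other 4 MMS pups. For Unc45a it was 0.24.

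The list of heat shock factor 1 and its targets had 12 tested genes of 13, with 8 positive and 4 negative values and a median of 0.11 (0.03 without MMS 2 and MMS 4). At an unadjusted edgeR p under 0.05, 2 were higher and 1 was lower in MMS, together 25.0% of the list against 9.08% of all genes (4.68% higher and 4.4% lower). Without MMS 2 and MMS 4, 0 were higher and 2 of 13 were lower. That was 15.4% of the list, against 5.03% of all genes in either direction. This list, like the others, was chosen with earlier results of these data known, so its shares are only a description. Dnajb1, an HSP40 that feeds clients to HSP70, was 49.6 ± 6.31 CPM in control pups against 66.5 ± 16.5 CPM after MMS (SD, n = 6 each), and 5 of 6 MMS pups were above all controls. Its log2 fold change was 0.43 (SE 0.15, with an adjusted p of 0.543 in edgeR), and 0.20 (SE 0.13) without MMS 2 and MMS 4. Hspe1, the mitochondrial HSP10, was at 0.33 (SE 0.14), and at 0.07 without MMS 2 and MMS 4, which measured 159 and 169 CPM against at most 112 CPM in the other 4. Hsf1, the transcription factor itself, was lower in MMS, at -0.50 (SE 0.20), and at -0.47 (SE 0.23) without MMS 2 and MMS 4.

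The coregulator list held 20 genes, all tested, with 9 positive and 11 negative values and a median of -0.03 (-0.07 without MMS 2 and MMS 4). Ppargc1a, a coactivator of nuclear receptors that drives mitochondrial genes, had a log2 fold change of 0.40 (SE 0.16) and 0.11 without MMS 2 and MMS 4. Smarca4, the ATPase of the SWI/SNF chromatin remodeller that receptors recruit, was at 0.27 (SE 0.10) and 0.15 without them. Ncoa3, a relative of Ncoa1, was at -0.29 (SE 0.16) and -0.20. The adjusted p was 0.543 for Ppargc1a and Smarca4 and 0.570 for Ncoa3 in edgeR.

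Of 12 genes of steroid metabolism and transport 7 were tested, with 3 positive and 4 negative values, a median of -0.04 (-0.12 without MMS 2 and MMS 4) and 0 at an unadjusted edgeR p under 0.05. Hsd17b4, a peroxisomal enzyme of fatty acid and steroid breakdown, was at 0.47 (SE 0.23) and at 0.01 without MMS 2 and MMS 4, which measured 37.3 and 45.8 CPM against 15.8 to 25.7 CPM in the other 4 MMS pups. Srd5a3 and Hsd17b12 followed, at 0.15 (SE 0.18) and -0.08 (SE 0.11), and at 0.21 and -0.12 without MMS 2 and MMS 4. Serpina6, which encodes corticosteroid-binding globulin, a plasma protein made mainly by the liver, had 0 counts in all libraries and was not tested.

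The list for transport of the receptor to the nucleus had 13 tested genes of 15, with 6 positive and 7 negative values and a median of -0.03 (0.05 without MMS 2 and MMS 4). Dync1h1, the heavy chain of the dynein motor that Fkbp4 recruits, was 435 ± 49.9 CPM in control pups against 336 ± 96.4 CPM after MMS (SD, n = 6 each). MMS 2 and MMS 4, at 216 and 215 CPM, were well below the other 4 MMS pups at 359 to 435 CPM. The log2 fold change was -0.37 (SE 0.16, with an adjusted p of 0.543 in edgeR) and -0.13 (SE 0.10) without them. Kpna1, an importin alpha that carries cargo through the nuclear pore, was at 0.21 (SE 0.12), and the dynein light chain Dynll1 at -0.16 (SE 0.11). These became 0.09 and -0.05 without MMS 2 and MMS 4.

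**Figure D4:**
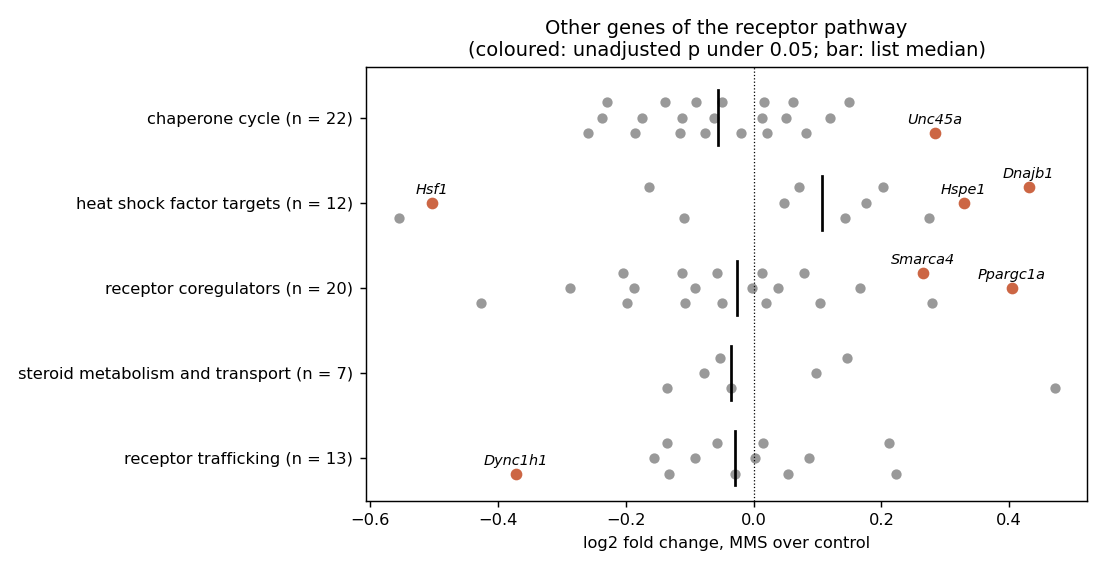
Log2 fold change of the 74 tested genes in the 5 functional lists, MMS over control, with 1 point per gene, coloured and named where the unadjusted edgeR p was under 0.05 (7 genes), and with the list median as a bar. The medians lie between -0.06 and 0.11, and points of each list fall on both sides of 0.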

How the data were processed

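The authors made 3' mRNA libraries with the QuantSeq kit, sequenced all 12 on an Ion Proton chip and aligned the reads to mm10 in the Torrent Suite. They deposited raw counts per gene for each library, with no normalization. Counting tool, strand setting and annotation were not given in the sources used here. Groups were taken from the sample titles, and p-values measure the spread between pups.

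The counts were compared in edgeR 4.0.16 (R 4.3.3) by its quasi-likelihood test (robust dispersions, TMM scaling, minimum count 10, minimum total 15). P-values were two-sided, with Benjamini-Hochberg adjustment over the 13104 genes tested and a threshold of 0.05. The SE is the absolute log2 fold change over the square root of F. CPM used TMM-scaled totals. Within-group pairs of libraries differed by more than sampling noise (chi-square per degree of freedom 4.04 to 31.5), so 12 samples were counted. The tests were checked on simulated counts. Loci are from GENCODE M21 (GRCm38). Named genes were the 10 members and the 3 genes of each list with the smallest p, plus the 3 genes whose log2 CPM correlated best with Nr3c1, Fkbp5 and Hsp90aa1. The result for 1 gene that this rule names is not reported here. The members and lists were chosen with earlier results of these data known. Alternatives were other scalings, no count filter, DESeq2, limma-voom, a surrogate variable, a replicate block and fits without single libraries or without MMS 2 and MMS 4.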

Additional observations from a re-analysis of the deposited data

How the results depend on the processing

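None of the 10 genes passed the adjusted threshold in any of 21 alternative fits, which gave 210 estimates. The lowest adjusted p was 0.264, for Hsp90ab1 in edgeR without MMS 5. Nr3c1, Fkbp5, Hsp90aa1, Hsp90ab1 and Ncoa1 kept their direction in all of these fits, and the direction of the other 5 turned in 29 estimates. Of the former 5, Fkbp5 lay between 0.25 and 0.38 in all of these fits and was at 0.31 with 1 surrogate variable. The size of the others did not hold in each fit: with 1 surrogate variable Nr3c1 was at -0.31, Hsp90ab1 at -0.088, Ncoa1 at 0.073 and Hsp90aa1 at 0.075. Log2 fold changes of the genes that turned were, in limma-voom with quality weights, -0.19 for Nr3c2, 0.0047 for Fkbp4, 0.0095 for Ptges3 and -0.12 for Hsd11b1. With 1 surrogate variable they were -0.32, 0.086, 0.083 and -0.18, and without MMS 2 and MMS 4 -0.32, 0.081, 0.060 and -0.16. Hsd11b1 was also at -0.015 in limma-voom. Leaving out 1 library at a time gave -0.089 to 0.23 for Nr3c2, -0.11 to 0.017 for Fkbp4, -0.096 to 0.046 for Ptges3, -0.053 to 0.029 for Stip1 and -0.16 to 0.18 for Hsd11b1. Over all genes 1 passed the threshold without a count filter, 7 with DESeq2, 4 with the surrogate variable, 5 without MMS 2 and MMS 4 and 0 to 1 with a library left out. The number at an unadjusted p under 0.05 was 1190 of 13104 tested genes. Without a filter it was 2039, but of the 23550 rows with a count. It was 682 with the surrogate variable and 674 of 13407 tested genes without MMS 2 and MMS 4. With a library left out it was 700 (without MMS 2) to 1804 (without MMS 5), and 707 without MMS 4. The surrogate variable was 0.71 in MMS 2 and 0.56 in MMS 4, against -0.18 to -0.030 in the remaining libraries. Its fit and the fit without MMS 2 and MMS 4 are thus not separate checks. Apart from the filter and the left-out libraries, the cause of the differing numbers was not tested.

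The replicate numbers are not said to mark a litter, so they were not taken to pair the samples. Deviations of same-numbered pups from their group correlated at -0.048 to 0.12, over 0.1 in 2 of 6 pairs. Such values cannot show whether same-numbered pups shared a litter. The replicate block gave 1 gene past the threshold, -0.076 for Hsd11b1 and no other change of direction among the 10 genes. With the block Hsp90ab1 was at -0.30 (SE 0.11, with an adjusted p of 0.467 in edgeR), beside -0.27 (SE 0.12) without it. Depth limited Nr3c2 (3 to 22 counts per library) and Hsd11b1 (10 to 72).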

Other observations

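The genes whose log2 CPM followed Nr3c1 most closely over the 12 libraries, out of 9646 with a mean of at least 10 CPM, were 0610009B22Rik (Pearson's r = 0.91, Spearman's rho = 0.95, r = 0.93 without MMS 2 and MMS 4), Ostm1 (0.90, 0.90 and 0.83) and Numbl (0.90, 0.83 and 0.84). For Fkbp5 they were Nudt21 (0.85, 0.70 and 0.81), Ube2d2a (0.84, 0.80 and 0.85) and Snn (0.83, 0.87 and 0.78). For Hsp90aa1 they were Kcnma1 (0.92, 0.92 and 0.88), Ndufaf1 (0.91, 0.92 and 0.89) and Zfp280d (0.89, 0.83 and 0.81). The points share library scaling and include both groups, and the highest of so many correlations over 12 points is large by selection, so these values are a description without a test.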
